A study of Mus musculus with 7 samples.

Results

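The genes described here are 10 members of the Keap1-Nrf2 oxidative stress pathway in the nasal tissue of mice that inhaled diesel exhaust particles (DEP). They were NAD(P)H quinone dehydrogenase 1 (*Nqo1*), heme oxygenase 1 (*Hmox1*), the catalytic and modifier subunits of glutamate-cysteine ligase (*Gclc* and *Gclm*), thioredoxin reductase 1 (*Txnrd1*), sulfiredoxin 1 (*Srxn1*), glutathione reductase (*Gsr*), the cystine transporter *Slc7a11*, Nrf2 itself (*Nfe2l2*) and its inhibitor *Keap1*. They were chosen by gene symbol. All array probes that are not controls and whose RefSeq transcript belongs to 1 of these symbols were taken, which gave 12 probes of 39429. *Hmox1* and *Gsr* had 2 probes each and the others 1. All 12 probes passed the filter on dim probes and were among 25162 tested probes, which stand for 20664 genes or transcripts.

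Female BALB/c mice, 6 weeks old at the start, inhaled 100 µg/m3 DEP suspended in saline from an ultrasonic nebulizer for 1 h a day on 5 days a week, over 4 or 8 weeks, and control mice received no DEP (saline, per the study's methods). Total RNA of the nasal cavity, which holds olfactory and respiratory mucosa together with bone, muscle and blood, was hybridised to Agilent 2-colour arrays. Every array carried RNA of DEP-exposed mice in Cy5 and RNA of control mice in Cy3, with 4 arrays at 4 weeks and 3 arrays at 8 weeks. The labels call the arrays biological replicates, and no source used here says how many mice gave RNA to an array or whether control RNA was pooled. The dyes were never swapped, so a bias of a probe towards 1 dye and an effect of DEP cannot be told apart at a single time. Arrays of the same exposure time shared a slide, and those of the other time lay on a second slide, so an effect of the slide and one of exposure time cannot be told apart either. The software marked 18601 to 25069 probes per array as well above background for DEP RNA and 16985 to 26927 for control RNA, and 0 spots as saturated. Across probes, the log2 ratios of 2 arrays correlated with r between 0.44 and 0.49 within 4 weeks, between 0.71 and 0.88 within 8 weeks, and between 0.087 and 0.29 across the times.

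Under basal conditions Keap1 binds the transcription factor Nrf2 and presents it to a Cul3 ubiquitin ligase for degradation. Oxidants and electrophiles modify cysteines of Keap1, Nrf2 then accumulates, pairs with a small Maf protein and binds antioxidant response elements (AREs) next to genes of quinone reduction, glutathione synthesis, thioredoxin turnover and NADPH supply. Diesel exhaust particles carry quinones, polycyclic hydrocarbons and metals, and the nasal mucosa, rich in detoxifying enzymes, is the first tissue that inhaled particles meet. The arrays measured transcripts only, and neither Nrf2 protein nor its binding was measured.

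Promoter sequences of 7 of the 10 genes were in the RefSeq promoter table of GRCm38.p6, which holds 250 bases before and 50 bases after a start site. *Hmox1*, *Gclc* and *Gsr* were not in it. The ARE core TGACNNNGC was searched on both strands. It was present in 12.4% of 32851 promoters and in 4 of the 9 promoters of these 7 genes, those of *Gclm*, *Txnrd1* (in 1 of its 3 windows), *Srxn1* and *Nfe2l2*. The windows of *Nqo1*, *Slc7a11* and *Keap1* did not hold these letters. None of these ARE matches overlapped the AP-1 site TGACTCA, which 5.2% of all promoters held and which occurred 2 times upstream of *Srxn1*. Only these strict letters were searched, so a stretch that differs from the ARE core in 1 base was not counted. The *Srxn1* AP-1 site 45 bases before the start lies in such a stretch (TGAGTCAGC), so the search does not separate the 2 elements there. *Slc7a11* is also a target of the amino acid response, so the core of that element, TGATGNAA (3.97% of all promoters), was searched after the values had been seen. It occurred 2 times upstream of *Slc7a11*. The sequences below are shown because their genes were lower in DEP-exposed tissue at 1 or both times, and that of *Nfe2l2* because it encodes the factor itself. Each runs 5′ to 3′ along the gene, and capitals mark the matched letters, which are a description and not a measured binding site.
*Gclm*, 250 bases upstream, chr3:122245307-122245556, plus strand, ARE core 134 bases before the start: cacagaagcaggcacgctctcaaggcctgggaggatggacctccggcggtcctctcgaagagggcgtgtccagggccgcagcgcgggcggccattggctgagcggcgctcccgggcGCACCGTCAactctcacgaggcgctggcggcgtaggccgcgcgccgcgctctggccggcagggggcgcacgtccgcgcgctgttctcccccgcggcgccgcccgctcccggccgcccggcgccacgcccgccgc
*Txnrd1*, 250 bases upstream, chr10:82858956-82859205, plus strand, ARE core 92 bases before the start: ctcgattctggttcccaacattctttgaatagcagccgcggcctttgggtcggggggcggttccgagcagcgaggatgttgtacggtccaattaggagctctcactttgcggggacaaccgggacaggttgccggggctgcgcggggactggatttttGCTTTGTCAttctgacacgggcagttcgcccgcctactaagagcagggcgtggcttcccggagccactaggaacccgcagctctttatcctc
*Srxn1*, 250 bases upstream, chr2:152105274-152105523, plus strand, AP-1 sites 102 and 45 bases before the start: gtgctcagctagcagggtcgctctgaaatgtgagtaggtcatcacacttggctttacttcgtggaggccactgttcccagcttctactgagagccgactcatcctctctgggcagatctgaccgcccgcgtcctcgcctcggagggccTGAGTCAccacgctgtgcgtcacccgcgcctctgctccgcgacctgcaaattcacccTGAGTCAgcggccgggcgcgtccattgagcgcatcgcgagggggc
*Srxn1*, 30 bases within the transcript, chr2:152105542-152105571, plus strand, ARE core 29 bases after the start: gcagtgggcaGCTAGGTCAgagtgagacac
*Slc7a11*, 250 bases upstream, chr3:50443614-50443863, minus strand, amino acid response cores 66 and 47 bases before the start: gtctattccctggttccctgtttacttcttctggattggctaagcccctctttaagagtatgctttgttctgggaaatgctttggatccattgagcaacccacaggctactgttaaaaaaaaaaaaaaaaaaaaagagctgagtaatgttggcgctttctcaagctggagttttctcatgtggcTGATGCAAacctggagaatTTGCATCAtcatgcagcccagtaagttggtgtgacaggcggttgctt
*Nfe2l2*, 250 bases upstream, chr2:75704664-75704913, minus strand, ARE core 240 bases before the start: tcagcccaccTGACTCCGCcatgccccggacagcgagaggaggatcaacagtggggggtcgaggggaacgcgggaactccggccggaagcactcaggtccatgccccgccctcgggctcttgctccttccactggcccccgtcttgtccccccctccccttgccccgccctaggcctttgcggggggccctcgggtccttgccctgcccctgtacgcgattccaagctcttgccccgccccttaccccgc

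The 10 genes did not share 1 direction under DEP exposure. After 4 weeks, 6 of the 10 passed an adjusted p of 0.05, with *Nqo1* and *Gsr* higher and *Hmox1*, *Txnrd1*, *Srxn1* and *Slc7a11* lower in DEP-exposed than in control tissue. After 8 weeks 5 passed, with *Gsr* higher and *Nqo1*, *Gclm*, *Txnrd1* and *Slc7a11* lower. Only *Nqo1* passed at both times in opposite directions, whereas *Txnrd1* and *Slc7a11* were lower and *Gsr* was higher at both. The higher calls depended on the scaling of the arrays: with median centring in place of loess, 5 members passed at 4 weeks and 8 at 8 weeks, and all of these were lower. That scaling also called 21% of all genes lower at 4 weeks and 33.3% at 8 weeks.

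These counts stand against a broad background. At 4 weeks 38.1% of all genes passed, 21.6% higher and 16.5% lower. At 8 weeks the shares were 37.3% in all, 20.3% higher and 17% lower. A group of 12645 genes had clear signal (well above background) from both RNAs on every array, 9 of the members among them (not *Slc7a11*). Among these genes 24.3% were higher and 22% lower at 4 weeks, and 20.9% were higher and 23.3% lower at 8 weeks. The median log2 ratio of the 10 genes was -0.11 at 4 weeks and -0.22 at 8 weeks, beside 0.00 and 0.01 over all genes. Lower at both times were 2 of 10 members and 4.97% of all genes, higher at both were 1 member and 8.09%, and 1 member and 6.07% of all genes passed in opposite directions. At the study's own thresholds (unadjusted p of at most 0.01 and a 2-fold change) 0 members passed by limma at either time, where 1.3% and 2.94% of all genes did. By an unadjusted limma p under 0.05 alone, 6 and 5 members passed, the same numbers as after adjustment. At least the 38.1% and 37.3% of all genes that passed after adjustment also had such a p.

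**Figure D1:**
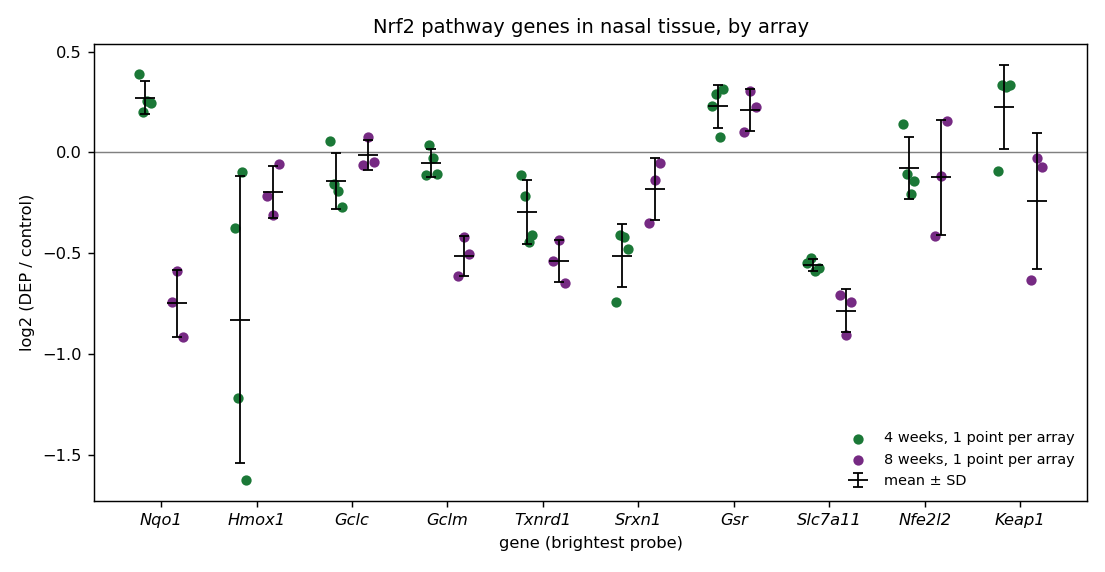
Log2 ratio of DEP-exposed over control tissue (y axis) of the 10 genes (x axis), each by its brightest probe, with 1 point per array (green, 4 arrays at 4 weeks; purple, 3 arrays at 8 weeks) and mean ± SD. *Nqo1* lies above 0 on every 4-week array and below 0 on every 8-week array, *Slc7a11* lies below 0 on all 7, and the 4-week points of *Hmox1* spread from -1.63 to -0.10.

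*Nfe2l2*, which encodes Nrf2, did not pass the test at either time. Its log2 ratios were 0.14, -0.11, -0.20 and -0.14 on the 4-week arrays and -0.41, -0.12 and 0.16 on the 8-week arrays, so both sets straddled 0. The means were -0.08 ± 0.15 (SD, n = 4; limma adjusted p = 0.547) and -0.12 ± 0.29 (SD, n = 3; adjusted p = 0.422), with 95% intervals of -0.30 to 0.14 and -0.38 to 0.13. With median centring it passed as lower at 8 weeks (-0.45, adjusted p = 0.0083).

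*Keap1*, which encodes the adaptor that marks Nrf2 for degradation, was also below the threshold at both times. At 4 weeks its ratios were -0.09, 0.33, 0.32 and 0.33, with replicate 1 apart from the other 3 arrays. At 8 weeks they were -0.63, -0.03 and -0.07, with replicate 1 the lowest. The low value lay in the DEP channel at 4 weeks (log2 intensity 9.87, against 10.22 to 10.38 on the other arrays). At 8 weeks it lay in the control channel (10.31, against 9.77 and 9.83), where that spot's local background was 92, against 55 and 51. The mean ratio was 0.23 at 4 weeks (limma adjusted p = 0.161) and -0.24 at 8 weeks (adjusted p = 0.195). The difference between the times was -0.47, with a 95% interval of -0.88 to -0.06 and an adjusted p of 0.0813. It passed in 5 of 15 alternatives, among them the one without replicate 1 of 4 weeks (-0.57, adjusted p = 0.0396), and was -0.27 without replicate 1 of 8 weeks (adjusted p = 0.203). *Keap1* passed as higher at 4 weeks with the software's processed signals (0.27, adjusted p = 0.0297) and as lower at 8 weeks with median centring (-0.56, adjusted p = 0.0114).

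*Nqo1*, an enzyme that reduces quinones by electron pairs with NADH or NADPH, is among the most used indicators of Nrf2 activity. At 4 weeks its log2 ratios were 0.39, 0.20, 0.25 and 0.25, higher in DEP-exposed tissue on all 4 arrays. At 8 weeks they were -0.74, -0.59 and -0.92, lower on all 3 arrays and far from the 4-week values. The mean was 0.27 ± 0.08 (SD, n = 4), or 1.21-fold higher (SE 0.063, limma adjusted p = 0.0123), at 4 weeks. At 8 weeks it was -0.75 ± 0.17 (SD, n = 3), or 1.68-fold lower (SE 0.072, adjusted p = 0.000198). In the channels, the mean log2 intensity of *Nqo1* in DEP-exposed tissue was 9.13 at 4 weeks and 8.43 at 8 weeks, while in control tissue it was 8.85 and 9.18. Both channels thus moved across the times, in opposite directions. The 4-week call was lost with median centring in place of loess (0.18, adjusted p = 0.0799) and with a background fitted on all spots (0.24, adjusted p = 0.0509).

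*Hmox1* encodes the enzyme that cleaves heme to biliverdin, iron and carbon monoxide. The brighter of its 2 probes gave ratios of -0.38, -1.22, -0.10 and -1.63 on the 4-week arrays, all below 0 but with the widest spread of the 10 genes. Its control channel was even across those arrays (log2 intensity 9.49 to 9.66, SD 0.082), and the spread lay in the DEP channel (7.87 to 9.56, SD 0.78). The 4-week mean was -0.83 ± 0.71 (SD, n = 4), or 1.78-fold lower (limma adjusted p = 0.0244). At 8 weeks the ratios of -0.22, -0.31 and -0.06 were close to 0, with a mean of -0.19 (adjusted p = 0.613). The second, dimmer *Hmox1* probe gave 0.13, -0.10, -0.05 and -0.35 at 4 weeks and 0.22, 0.03 and 0.07 at 8 weeks, with means of -0.09 (adjusted p = 0.382) and 0.10 (adjusted p = 0.405). The 2 probes thus disagreed, and the control channel of the dimmer one was well above background on 2 of the 4 arrays at 4 weeks. Without replicate 2 of 4 weeks the brighter probe gave -0.70 (adjusted p = 0.085), and without replicate 4 it gave -0.56 (adjusted p = 0.0675). The 4-week call was lost in 8 of 18 alternatives.

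Markers of cells that carry much heme oxygenase are given beside this value. Of 7 tested macrophage markers, 0 were higher and 2 were lower at 4 weeks, with a median log2 ratio of -0.16. Their medians on the 4 arrays were -0.095, -0.098, -0.24 and -0.15, and their summed intensity was 2504 to 2931 in DEP-exposed and 2698 to 2959 in control tissue. Whether they had a part in the *Hmox1* values was not tested. In bulk tissue, fewer cells of a type and less RNA per cell cannot be told apart.

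Among the genes of glutathione synthesis, *Gclm* and *Slc7a11* were lower in DEP-exposed tissue and *Gclc* did not pass. *Gclc* encodes the catalytic subunit of the enzyme that makes gamma-glutamylcysteine, the rate-limiting step. Its ratios were 0.06, -0.16, -0.19 and -0.27 at 4 weeks, with a mean of -0.14 (95% interval -0.28 to 0.00, limma adjusted p = 0.11). At 8 weeks they were -0.06, 0.07 and -0.05, with a mean of -0.01 and a 95% interval of -0.18 to 0.15. With median centring *Gclc* passed as lower at both times, with -0.25 (adjusted p = 0.0271) and -0.34 (adjusted p = 0.0112). Without replicate 1 of 4 weeks, the only one of those arrays above 0, the 4-week mean was -0.20 (adjusted p = 0.0232).

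*Gclm* encodes the modifier subunit, which raises the efficiency of the catalytic one. At 4 weeks its ratios lay around 0, at -0.11, 0.03, -0.03 and -0.11, with a mean of -0.05 (adjusted p = 0.438). After 8 weeks they were -0.62, -0.42 and -0.50, all below every 4-week value. Their mean was -0.51 ± 0.10 (SD, n = 3), or 1.43-fold lower (SE 0.059, limma adjusted p = 0.000491). The 95% interval of *Gclm* at 8 weeks (-0.65 to -0.38) lay wholly below that of *Gclc*, and the difference between the subunits was not tested.

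*Slc7a11* encodes the light chain of the cystine-glutamate exchanger that brings in cystine for glutathione. Its ratios had the smallest spread of the 10 genes at 4 weeks, at -0.55, -0.52, -0.59 and -0.57. At 8 weeks the ratios were -0.71, -0.91 and -0.74, each below all those of 4 weeks. The means were -0.56 ± 0.03 (SD, n = 4), or 1.47-fold lower (SE 0.048, limma adjusted p = 0.000138), and -0.79 ± 0.11 (SD, n = 3), or 1.72-fold lower (SE 0.056, adjusted p = 3.9e-05). The gene was weakly expressed: its median spot signal in DEP-exposed tissue was 81 to 105.5 over a local background of 59 to 70.5, and in control tissue 133 to 153 over 49 to 59. Each channel was well above background on 3 of the 4 arrays at 4 weeks and on all 3 at 8 weeks. At such signals the offset of 50 used in the background correction shrinks the ratio and its spread between arrays. The small SD at 4 weeks is therefore not a measure of how steady the gene was. The software's processed signals gave ratios of -1.29 and -1.86.

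*Gsr*, which returns oxidised glutathione to its reduced form with NADPH, was the only one of the 10 above 0 on all 7 arrays. Its brighter probe gave 0.23, 0.29, 0.08 and 0.32 at 4 weeks and 0.10, 0.31 and 0.23 at 8 weeks. The means of 0.23 ± 0.11 (SD, n = 4; limma adjusted p = 0.0173) and 0.21 ± 0.10 (SD, n = 3; adjusted p = 0.0411) were 1.17-fold and 1.16-fold higher. The dimmer probe did not share this, with means of -0.02 (adjusted p = 0.809) and -0.11 (adjusted p = 0.298). Both calls were lost without replicate 2 of 4 weeks (adjusted p = 0.0706 and 0.06) or replicate 4 of 4 weeks (0.0698 and 0.0537), and the 8-week call also without replicate 2 (0.216) or 3 (0.127) of 8 weeks. The 8-week call was lost too with a background fitted on all spots (0.0538). Of 18 alternatives, the 4-week call was lost with its sign kept in 6 and with its sign changed in 1. For the 8-week call these counts were 9 and 2. Under median centring, which moved the median of all genes at 8 weeks from 0.01 to -0.11, *Gsr* was 0.12 at 4 weeks (adjusted p = 0.194) and -0.11 at 8 weeks (adjusted p = 0.271), the latter level with the median gene.

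**Figure D2:**
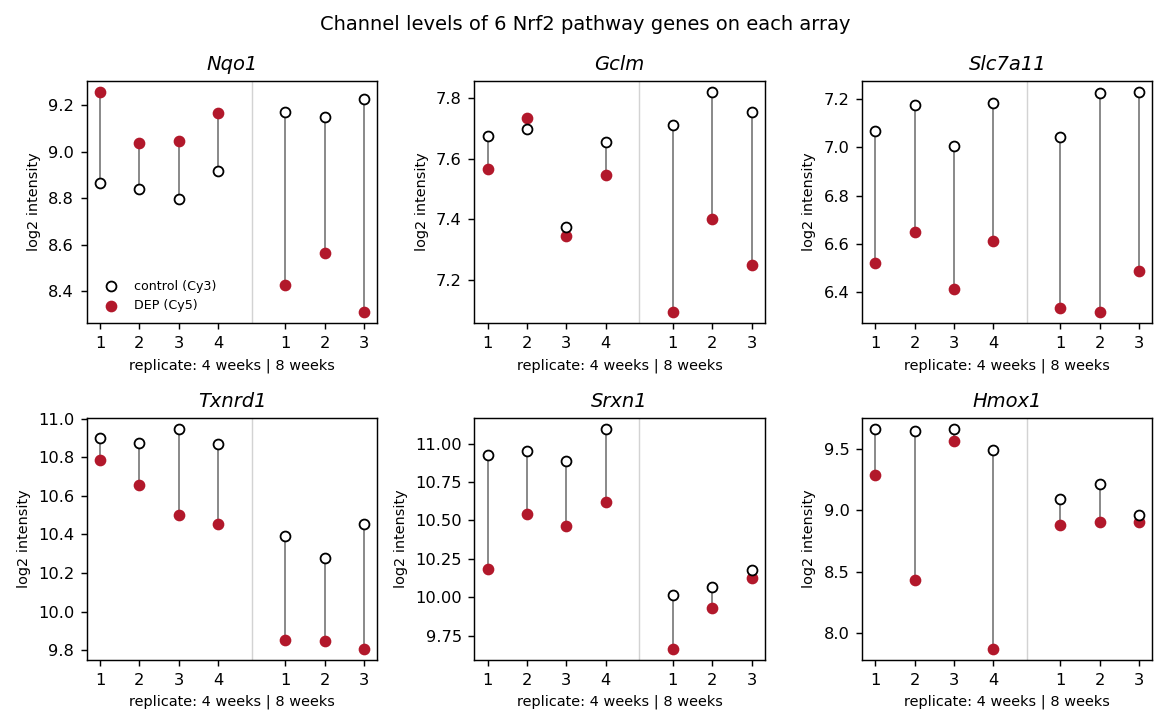
Log2 intensity (y axis, after loess and between-array scaling) of 6 of the genes in the control channel (open circles) and the DEP channel (filled circles) of each array (x axis, replicates of 4 and 8 weeks), joined by a line. The order of the channels for *Nqo1* turns between the times, the gap for *Slc7a11* stays, and the DEP channel of *Hmox1* varies at 4 weeks while its control channel does not. The y axes differ between panels and do not start at 0, and levels were not compared between genes.

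*Txnrd1* encodes the cytosolic reductase that keeps thioredoxin active. It was lower in DEP-exposed tissue on all 7 arrays, at -0.11, -0.22, -0.45 and -0.41 after 4 weeks and at -0.54, -0.43 and -0.65 after 8 weeks. The mean was -0.30 ± 0.16 (SD, n = 4), or 1.23-fold lower (SE 0.068, limma adjusted p = 0.0123), at 4 weeks. It was -0.54 ± 0.11 (SD, n = 3), or 1.45-fold lower (SE 0.079, adjusted p = 0.00163), at 8 weeks. Without replicate 4 of 4 weeks the 4-week value was -0.26 (adjusted p = 0.051).

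*Srxn1* reduces overoxidised peroxiredoxins. It was also below 0 on every array, with values nearer to 0 at 8 weeks than at 4 weeks, at -0.74, -0.41, -0.42 and -0.48 at 4 weeks and -0.35, -0.14 and -0.05 at 8 weeks. The 4-week mean of -0.51 ± 0.16 (SD, n = 4) was 1.43-fold lower than control (SE 0.074, limma adjusted p = 0.00156). The 8-week mean of -0.18 did not pass (adjusted p = 0.138). With median centring, the 8-week mean was -0.51 (adjusted p = 0.00408).

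The effect of DEP differed between 8 and 4 weeks for *Nqo1* and *Gclm*, both lower at 8 weeks, beside 30.9% of all genes that differed, 14.9% higher and 16.1% lower at 8 weeks (17.5% and 21.2% of the genes with both channels well above background). For *Nqo1* the difference in log2 ratio was -1.02 (95% interval -1.24 to -0.80, limma adjusted p = 0.000308), a 2.03-fold change, and it was the 1 member past the study's 2-fold and p thresholds (3.06% of all genes). For *Gclm* it was -0.46 (95% interval -0.64 to -0.28, adjusted p = 0.00436), and -0.81 with the processed signals. *Srxn1* went the other way by 0.33 (95% interval 0.07 to 0.59) with an adjusted p of 0.0591. This difference was 0.42 without replicate 1 of 8 weeks (adjusted p = 0.0401) and 0.12 with median centring (adjusted p = 0.518). *Slc7a11* differed by -0.23 (adjusted p = 0.0513). *Txnrd1* gave -0.24 (adjusted p = 0.12), and -0.46 with median centring (adjusted p = 0.0311). *Hmox1* gave 0.63 with a wide 95% interval of -0.17 to 1.44. The values of the 2 times did not overlap for 4 of the 10 genes, *Nqo1*, *Gclm*, *Srxn1* and *Slc7a11*, a share no larger than the 42.2% of all genes for which this held.

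**Figure D3:**
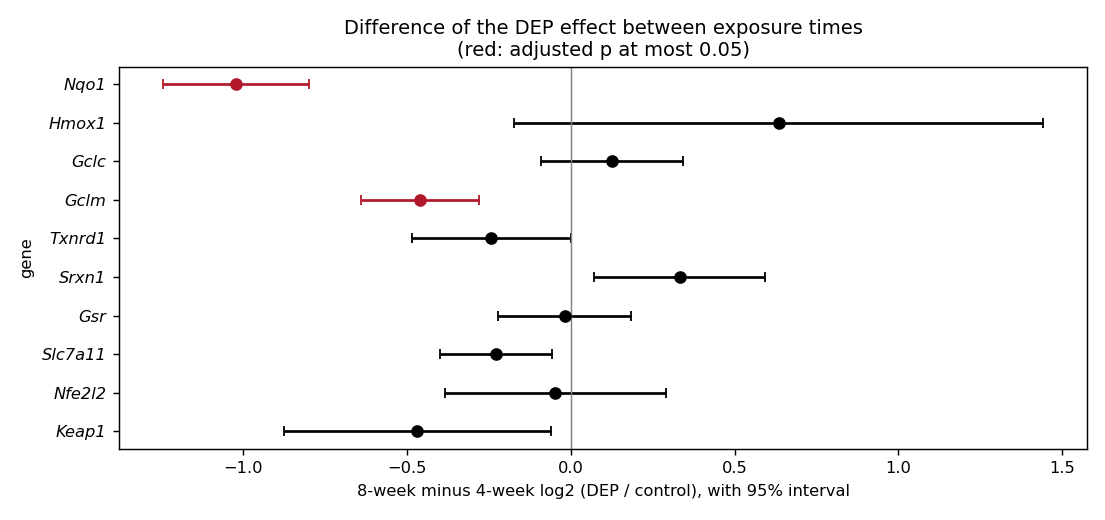
Difference between the 8-week and 4-week mean log2 ratio of DEP over control (x axis) for each gene (y axis), with its 95% interval from the limma fit over 7 arrays. *Nqo1* at -1.02 and *Gclm* at -0.46 (red) have an adjusted p of at most 0.05, and the interval of *Hmox1* is the widest.

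Markers of mature olfactory neurons moved in the same directions as *Nqo1*. All 7 listed markers, among them *Omp*, passed the filter on dim probes. Of these, 5 were higher and 0 lower in DEP-exposed tissue at 4 weeks, with a median log2 ratio of 0.44, and 0 were higher and 6 lower at 8 weeks, with a median of -0.71. Their medians on single arrays were 0.37 to 0.62 at 4 weeks and -0.67 to -0.54 at 8 weeks. Their summed intensity was 145855 to 160207 in DEP-exposed and 79615 to 94185 in control tissue at 4 weeks, and 94159 to 98866 and 131498 to 148032 at 8 weeks. Of 4 sustentacular cell markers, 3 were higher at 4 weeks and 3 were lower, with 1 higher, at 8 weeks. Of 5 erythroid markers, 3 were higher at 4 weeks and all 5 were lower at 8 weeks (median -0.77), and the 5 bone and tooth markers were all lower at 4 weeks and all higher at 8 weeks (4 of 5 with median centring). Of 5 neutrophil markers, 4 were lower and 1 higher at 4 weeks (median -0.78), and 3 were lower and 1 higher at 8 weeks (median -0.76). Their medians were below 0 on all 7 arrays, and the higher marker, *Csf3r*, had means of 1.28 and 1.07. Of 5 basal and squamous markers, 1 was higher and 3 lower at 4 weeks (median -0.54), and 2 were higher and 1 lower at 8 weeks (median 0.05). Of 5 ciliated cell markers, 2 were higher and 0 lower at each time. Of 4 muscle markers, 1 was higher and 1 lower at 4 weeks, and 1 was higher and 3 lower at 8 weeks. Of 3 immature neuron markers, 1 was higher at 4 weeks and 0 passed at 8 weeks. The part of tissue makeup in the values of the 10 genes was not tested.

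A wider set of 110 tested genes of the same system, in 10 lists, held more lower than higher genes at 8 weeks under each scaling, and at 4 weeks under each but the software's processed signals. At 4 weeks 60 of the 110 passed, 25 higher and 35 lower (31.8%), with a median log2 ratio of 0.02. At 8 weeks 63 passed, 17 higher and 46 lower (41.8%), with a median of -0.17. Clear signal from both RNAs on every array was present for 103 of the 110, so the shares given above for such genes are the nearer background. The split moved with the scaling: median centring gave 13 higher and 38 lower at 4 weeks and 5 and 76 at 8 weeks, and the software's processed signals gave 33 and 26 at 4 weeks and 18 and 46 at 8 weeks.

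NADPH is the cofactor of *Txnrd1* and *Gsr*, and *Nqo1* can use NADH or NADPH. The 6 genes of the NADPH supply list were lower without exception at 8 weeks. At 4 weeks 3 were lower and 0 higher. At 8 weeks the 6 lower genes had a median of -0.82, and all 6 also differed between the times, with the lower value at 8 weeks. Malic enzyme (*Me1*) was at -0.22, -0.42, -0.46 and -0.48 on the 4-week arrays and at -0.97, -1.16 and -0.96 on the 8-week arrays, with means of -0.40 and -1.03. Glucose-6-phosphate dehydrogenase (*G6pdx*), the entry of the pentose phosphate pathway, had a mean of -0.15 at 4 weeks (limma adjusted p = 0.146) and of -0.94 at 8 weeks (adjusted p = 0.00013). Transketolase (*Tkt*) and transaldolase (*Taldo1*), also on the list, act in the other arm of that pathway, which does not itself make NADPH. *Tkt* had means of -0.31 and -0.95, and *Taldo1* of -0.30 and -0.70. All 6 genes also passed as lower at 8 weeks with median centring and with a background fitted on all spots, and 5 of the 6 with the processed signals (not *Idh1*), where the median was -0.87.

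Several glutathione transferases turned between the times like *Nqo1*. Of 15 genes, 6 were higher and 3 lower at 4 weeks, and 0 were higher and 9 lower at 8 weeks. The difference between the times passed for 9 of them, with 8 lower and 1 higher at 8 weeks. *Gstm1* was at 0.72, 0.60, 0.55 and 0.51 and then at -0.79, -0.72 and -0.97, with a difference of -1.42 (limma adjusted p = 5.2e-05). *Mgst1*, a membrane-bound transferase, was lower at both times, by means of -0.52 and -1.21. Genes of the *Gstm* and *Gsta* clusters are near copies of each other, so their probes may share signal. With median centring all 15 genes were lower at 8 weeks and 3 were higher and 3 lower at 4 weeks.

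Around *Txnrd1* and *Srxn1*, 13 other thioredoxin and peroxiredoxin genes had 1 higher and 7 lower at 4 weeks, and 0 higher and 6 lower at 8 weeks, with medians of -0.21 at both times. *Prdx1*, a peroxide-reducing partner of sulfiredoxin, had means of -0.63 and -0.30. *Prdx6* was the exception, at 0.34, 0.47, 0.48 and 0.47 and then at -0.40, -0.44 and -0.53 (difference -0.90, adjusted p = 0.00015). Median centring gave 10 of the 13 lower at 8 weeks, and the processed signals gave 3 lower at 4 weeks.

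Around *Gclc*, *Gclm*, *Slc7a11* and *Gsr*, 15 other glutathione genes had 2 higher and 6 lower at 4 weeks and 4 higher and 5 lower at 8 weeks. *Ggct*, which takes part in glutathione breakdown, had means of -0.51 and -1.13. The probe of the glutaredoxin *Glrx2* stood apart in the other direction, with 1.39 at 4 weeks and 1.23 at 8 weeks.

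The 14 regulators that work with Nrf2 and Keap1 had 3 higher and 2 lower at 4 weeks and 3 higher and 3 lower at 8 weeks, with medians of 0.11 and -0.04. *Bach1*, a repressor that competes with Nrf2 at the *Hmox1* gene, was higher by 0.40 at 8 weeks (limma adjusted p = 0.0066) and differed by 0.56 between the times, and its 8-week call was lost with median centring. *Sqstm1*, which binds Keap1, had means of -0.31 and -0.38. The coactivator *Crebbp* was higher at both times, by 0.74 and 0.36, the latter also lost with median centring.

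Among 9 heme and iron genes, 1 was higher and 2 lower at 4 weeks, and 2 were higher and 4 lower at 8 weeks. Biliverdin reductase A (*Blvra*), which acts after Hmox1, was lower at 4 weeks (-0.33) and higher at 8 weeks (0.56). Ferritin heavy chain (*Fth1*) was higher by 0.33 at 4 weeks and differed by -0.56 between the times. In the list of 14 quinone, carbonyl and epoxide enzymes, 3 were higher and 4 lower at 4 weeks and 2 were higher and 5 lower at 8 weeks, and *Ephx1* had means of 0.24 and -0.39. Of 6 efflux transporters 5 were higher at 4 weeks (median 0.30) and 1 was lower at 8 weeks, with 2 higher at 4 weeks and 5 lower at 8 weeks under median centring. Of 5 genes that remove superoxide and peroxide, 1 was higher and 1 lower at 4 weeks and 1 was higher and 2 lower at 8 weeks, where *Pon2* had -0.54 and -0.76. In the list of 13 other stress genes 3 were higher and 7 lower at 4 weeks and 5 were higher and 5 lower at 8 weeks. *Chac1*, a target of the amino acid response that degrades glutathione, had means of -0.56 and -0.92, and *Asns*, another target of that response, had -0.21 at 4 weeks and 0.45 at 8 weeks, the latter call lost with median centring (0.20, adjusted p = 0.0774). In the same list *Trib3* had means of -0.19 and -0.77, *Ddit3* of 0.03 (not called) and -0.38, and *Atf4* of 0.20 and 0.43. The 4-week call of *Atf4* was lost with median centring (0.13, adjusted p = 0.108). With median centring the 8-week counts became 0 higher and 7 lower for the regulators, 1 and 8 for the glutathione genes, 2 and 6 for heme and iron, 1 and 10 for the quinone, carbonyl and epoxide enzymes, 0 and 4 for superoxide and peroxide removal, and 1 and 5 for the other stress genes.

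**Figure D4:**
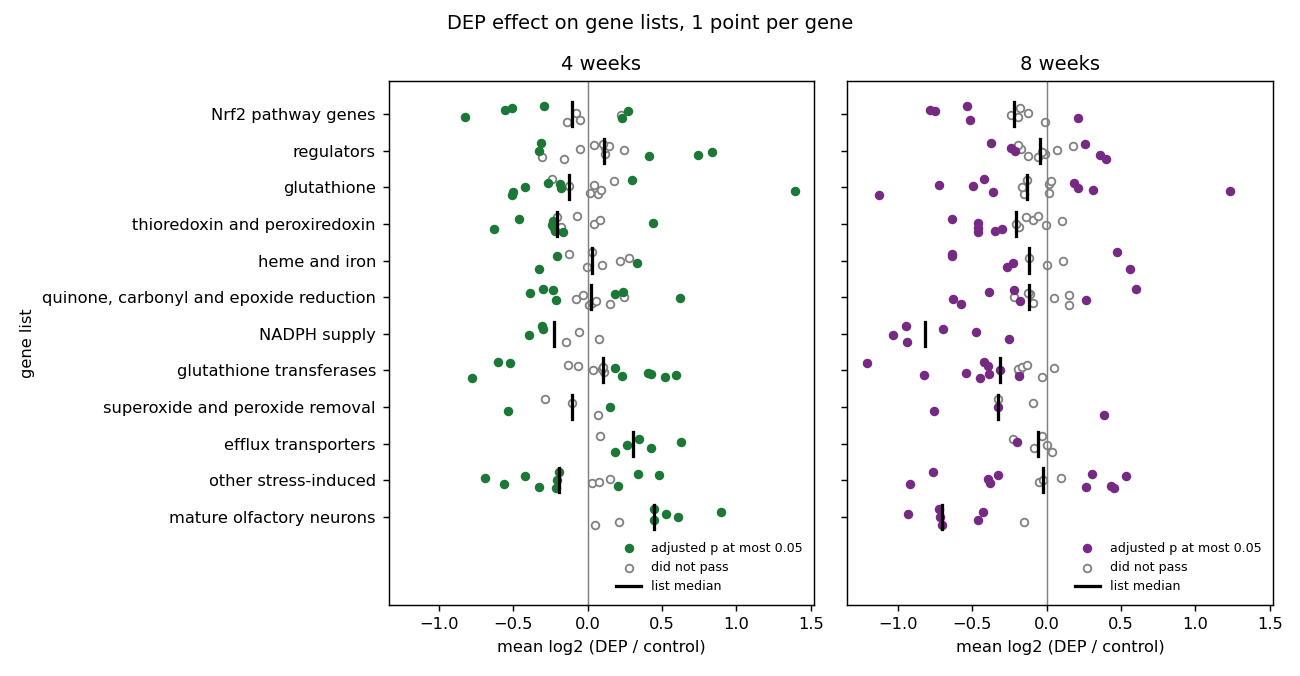
Mean log2 ratio of DEP over control (x axis) at 4 weeks (left) and 8 weeks (right), with 1 point per tested gene in each list (y axis). Filled points have an adjusted p of at most 0.05 and bars are list medians. The 6 genes of the NADPH supply list all lie below 0 at 8 weeks (median -0.82), and the olfactory neuron markers lie above 0 at 4 weeks and below 0 at 8 weeks.

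*Slc7a11* had the largest absolute mean over the 7 arrays among the 10 genes. The 5 genes whose 7 log2 ratios lay nearest to its own were *Pon2*, *Myh13*, *Lce3a*, *Ifi27l2b* and *Cdk18*, with root mean square distances of 0.075, 0.079, 0.087, 0.09 and 0.10. *Pon2* was at -0.57, -0.46, -0.46 and -0.65 at 4 weeks and at -0.63, -0.85 and -0.79 at 8 weeks. These distances rest on ratios that the offset shrinks for the weak *Slc7a11* signal. With the processed signals, *Slc7a11* was at -1.29 and -1.86 and *Pon2* at -0.61 and -1.10 at 4 and 8 weeks, so the closeness to *Pon2* depended on the processing.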

How the data were processed

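Per the labels and the study's methods, the 7 arrays carried DEP RNA (Cy5) and control RNA (Cy3) and were read by Feature Extraction 10.10.1.1. The authors deposited its output, in which the median spot signals and local backgrounds are intensity values with no correction, and the processed signals are background-subtracted and dye-normalized intensity. From the median signals, backgrounds were corrected with limma 3.58.1 in R 4.3.3 (normexp, offset 50, fitted without spots marked as background outliers), ratios were normalized by loess (span 0.3) without controls, spots marked as not uniform were dropped, and repeated spots were averaged. Channel levels were scaled between arrays (Aquantile). A probe was tested if 1 of its channels or both were well above background on 3 or more of the 7 arrays. Of 39429 probes, 28330 were named by accession through RefSeq (GRCm38.p6). No gene coordinates are given beyond the promoter table's.

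A limma fit with 1 mean per exposure time over all 7 arrays was adjusted by Benjamini-Hochberg over all tested probes, and an adjusted p of at most 0.05 was called. All p-values in the text come from this fit unless named otherwise. They set a mean against the spread between arrays, which is estimated over both times together. How many mice stand behind an array is not known, so this may not be the spread between single mice. The precision is limited by the number of arrays. A gene is represented by the brightest of its tested probes (mean over all arrays). The text names all 10 members, from each list at most the 3 highest and 3 lowest genes per time that passed with the same sign on every array and those that differed between the times, and the 5 genes nearest to the member with the largest mean. The members and lists were chosen with earlier results of these data known.

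Alternatives were a background fitted on all spots, the processed signals, median centring, 2 other filters on dim probes, non-uniform spots kept, the mean of a gene's probes, the arrays of 1 time alone, the methods' t-test, the replicate block, and each array left out. The dimmer probes of *Hmox1* and *Gsr* were added after the data had been seen. The steps were tested on simulated data.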

Additional observations from a re-analysis of the deposited data

Results flagged for a closer look

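*Keap1* at 4 weeks was flagged because replicate 1, at -0.090, stood far from the other 3 arrays, which lay between 0.32 and 0.33. It was the 1 of 12 probes in which an array stood apart this far, and chance alone flags about 1 in 20 groups.

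*Nqo1* and *Gclm* were flagged because the effect of DEP differed between the exposure times by the test of the difference itself, with -1.02 for *Nqo1* and -0.46 for *Gclm* (8 minus 4 weeks, log2). Both differences kept their direction and passed an adjusted p of 0.05 in all 15 alternatives that were run for them, with ranges of -1.28 to -0.94 and of -0.81 to -0.41. An effect of the slide and one of time cannot be told apart in these differences.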

How the results depend on the processing

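Of 120 recomputed counts, 104 stayed within 1.5 times the value given above. The methods' t-test after adjustment gave 4335 genes of all tested at 4 weeks (7880 by limma) and 4818 at 8 weeks (7709), and 37 and 41 of the wider pathway genes (60 and 63). At the methods' thresholds it gave 251 and 584 genes, 1 and 4 wider pathway genes, and 0 and 0 of the 10 members. The background fitted on all spots gave 5083 genes at 4 weeks. Median centring gave 8 members at 8 weeks (5), all lower, and 4 that differed between the times (2). The filter on both channels, which leaves out *Slc7a11*, gave 4 that differed. Leaving out 1 array gave 5679 to 7916 and 4470 to 8538 genes, 3 to 7 and 4 to 5 members, and 42 to 61 and 45 to 68 wider pathway genes at 4 and 8 weeks, the lowest member count (3) without replicate 4 of 4 weeks and the lowest 8-week gene count (4470) without replicate 2 of 8 weeks. Of all genes called, 56.7% were higher at 4 weeks (42.5% with median centring, 67.9% with processed signals) and 54.5% at 8 weeks (27.0% with median centring).

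Values near 0 changed sign. *Gclc* at 8 weeks was 8.0e-05 with processed signals, 0.013 without replicate 1 and 0.0051 without replicate 3 of 8 weeks (-0.057 to 0.013 over all left-out arrays), and its difference was -0.089 with median centring. *Gclm* at 4 weeks was 0.047 with processed signals. *Gsr* was -0.022 and -0.11 by its dimmer probe and -0.11 at 8 weeks with median centring. Its difference was 0.0038 with the background of all spots, 0.0013 and 0.011 without replicate 2 or 4 of 4 weeks and 0.036 without replicate 1 of 8 weeks (-0.069 to 0.036 over all left-out arrays). *Hmox1* at 8 weeks was 0.10 by its dimmer probe. *Nfe2l2* at 8 weeks was 0.021 without replicate 1 of 8 weeks (-0.27 to 0.021 over all left-out arrays). Its difference was 0.027 without replicate 1 of 4 weeks and 0.098 without replicate 1 of 8 weeks (-0.19 to 0.098). The cause was not tested.

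Same-numbered arrays of the 2 times did not deviate together (r = -0.0065, -0.0067 and 0.017), so the numbers were not taken as pairs. With the replicate block 3201 genes and 3 members differed, against 5235 and 2 on the same 6 arrays without it, and the difference of *Gsr* was 0.011. Weak signals, as of *Slc7a11* and *Gclm*, bound how well a ratio is known.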

Other observations

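At 4 weeks the spread between arrays was smaller in the control channel than in the DEP channel for all 10 genes, where this held for 56.3% of all genes (median SD 0.110 and 0.127). At 8 weeks it held for 6 of the 10 and for 69.7% of all genes.

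The control channel itself was lower at 8 than at 4 weeks by 0.88 for *Srxn1*, 0.62 for *Gclc*, 0.53 for the brighter *Hmox1* probe and 0.52 for *Txnrd1* (log2 intensity), and higher by 0.33 for *Nqo1*. The dimmer *Hmox1* probe went the other way, with a control channel 0.40 higher at 8 weeks. Time and slide cannot be told apart in these values.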
